A study of Mus musculus with 5 samples.

Results

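The genes described here are 39 markers of the oligodendrocyte lineage, taken by symbol from a fixed list that runs from the precursor to the myelinating cell. All 39 were found once each among the 55421 genes of the count table, and all 39 passed the filter on low counts, which kept 20388 genes. Following the order of that list, they were divided into 10 precursor, 7 committed and 22 myelin genes; the borders between these stages were set from general knowledge of the lineage.

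RNA came from whole cerebella of mice at postnatal day 14 and was sequenced in 5 bulk libraries with paired reads of 150 bp. The 2 control libraries were from Pcp2 Cre/+; Yy1 fx/+ mice and the 3 Yy1 cKO libraries from littermate conditional knockout (cKO) mice with the genotype Pcp2 Cre/+; Yy1 fx/fx, so both groups carried the Cre driver and at least 1 floxed copy of Yy1, and no animal without Cre was included. The Pcp2 promoter is known for driving Cre in Purkinje cells, whose axons carry the output of the cerebellar cortex, and the title of the series names these cells as the site of the loss. Both sexes were used according to the series text. The labels do not say whether the replicates of a group were separate animals. In counts of Xist and the Y-linked Ddx3y, control 1 had 12 and 1175 and control 2 had 44119 and 0. The controls thus differed in sex and were not the same animal. Yy1 cKO 3 (6 and 1471) likewise differed from Yy1 cKO 1 (34304 and 0) and Yy1 cKO 2 (29862 and 0). Yy1 cKO 1 and Yy1 cKO 2 were the most alike pair of libraries. Their chi-square of counts per gene, lower for more alike libraries, was 3.51. It was 7.72 for the controls, and 16.7 and 16.6 for Yy1 cKO 3 against Yy1 cKO 1 and Yy1 cKO 2. Whether Yy1 cKO 1 and Yy1 cKO 2 were separate animals is not known. Part of the spread between libraries that p-values measure may thus be technical.

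Oligodendrocytes wrap axons in myelin, and in the cerebellum they fill the white matter and reach into the granule cell layer. They arise from dividing precursors, which respond to platelet-derived growth factor through PDGFRA and carry the proteoglycan NG2. A precursor that leaves division passes through a short committed stage marked by the receptor GPR17 and the enzyme ENPP6, and the factor MYRF then switches on the genes of compact myelin. Myelination of the mouse cerebellum is under way in the second postnatal week. In whole tissue, fewer cells of a type and less RNA per cell cannot be told apart.

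Total counts per library ranged from 17424860 to 20305705. In CPM (counts scaled by TMM to a common library size), Yy1 stood at 74.6 and 73.7 CPM for the controls against 73.4, 81.7 and 75.8 CPM for Yy1 cKO, with a log2 fold change (Yy1 cKO over control) of 0.05 ± 0.065 (SE) and an adjusted p of 0.61; whole tissue includes the many cells without Cre, so this value checks the labels little. Purkinje and granule cell markers were abundant. Calb1 averaged 670.4 CPM (controls) and 663 CPM (Yy1 cKO), and Gabra6 462 CPM (controls) and 623 CPM (Yy1 cKO). Of 10 Purkinje markers 3 rose, and of 10 granule cell markers 5 rose and 1 fell. Among all tested genes 10.7% rose and 12.6% fell. Of 19 markers of brainstem and spinal cord, 18 stayed under 1 CPM in every library. The first principal component (59.3% of the variance) lay between the groups, and the second (18.5%) set Yy1 cKO 3 off from the rest. Yy1 cKO 3 and control 1 carried Y-linked transcripts, and the other 3 libraries did not.

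Of the 39 genes 10 fell and 8 rose, that is 18 called, where 23.4% of all tested genes were called, 12.6% lower and 10.7% higher (quasi-likelihood test of edgeR, p adjusted over all tested genes by Benjamini-Hochberg, threshold 0.05). By stage, 4 of 10 precursor genes and 5 of 7 committed genes fell and none of either rose (0 of 17 also at an unadjusted p under 0.05, and none with DESeq2 or limma-voom), while 8 of 22 myelin genes rose and 1 fell. The median log2 fold change was -0.30 for precursor, -0.41 for committed and 0.33 for myelin genes, against -0.00086 for all tested genes. All log2 fold changes lay between -0.96 and 0.95, so none of the 39 genes changed as much as 2-fold. Scaled by library size alone, which moves the median of all genes by -0.08, the counts were 5 precursor and 6 committed genes lower and 5 myelin genes higher and 2 lower.

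**Figure D1:**
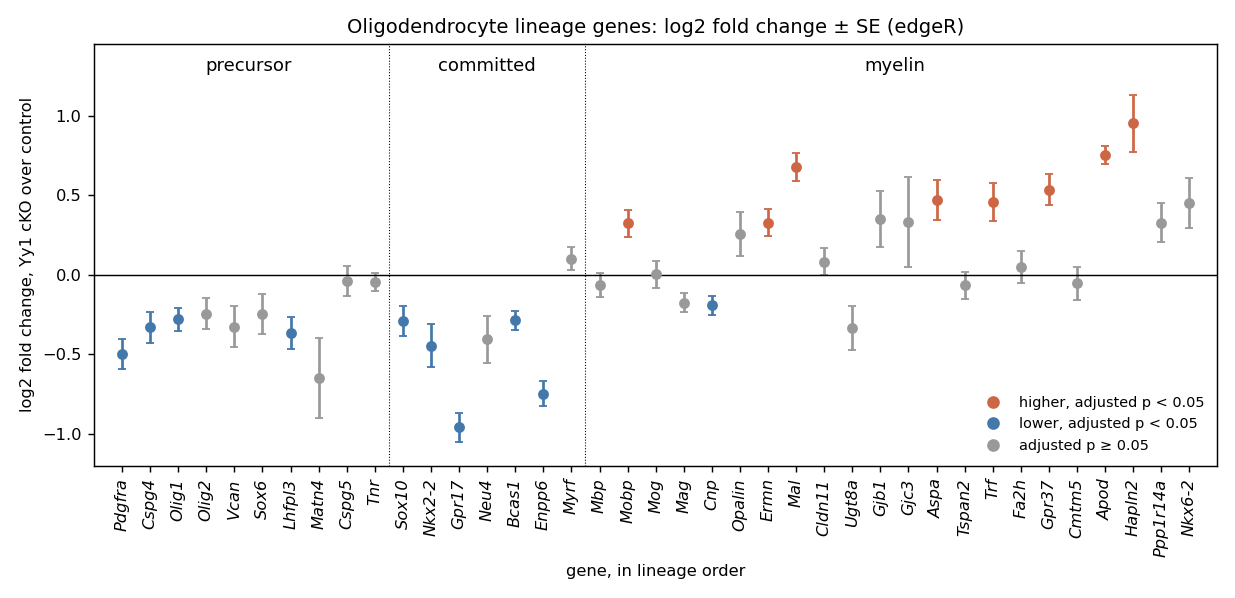
Log2 fold change of the 39 genes in lineage order, Yy1 cKO (3 libraries) over control (2 libraries), as points with the standard error as bars, coloured by the call of the edgeR quasi-likelihood test. All 10 precursor points lie below 0, as do 6 of 7 committed points, while 16 of 22 myelin points lie above 0.

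These counts depended on single libraries. So did the counts over all tested genes, which dropped in both directions when either control was left out. Without control 1, 4 members fell and 2 rose, and without control 2 the numbers were 2 and 5. Leaving out Yy1 cKO 1 gave 6 members lower and 4 higher (1877 and 1491 of 20131 tested genes). Leaving out Yy1 cKO 2 gave 4 lower and 7 higher (2011 and 1638 of 20126). Without Yy1 cKO 3, which was set apart above, 15 fell and 9 rose (3127 and 2990 of 20032 tested genes). That fit keeps only Yy1 cKO 1 and Yy1 cKO 2, the most alike pair, which may not be separate animals. Its p-values may thus rest on too small a spread, here and for every gene below given without Yy1 cKO 3. No called member changed sign in any of these fits. Gpr17, Enpp6, Mal and Apod were called in all 15 alternatives, and Pdgfra, Gpr37 and Hapln2 in all but 1. The values of CPM in the 2 groups did not overlap for 28 of the 39 genes, 11 with Yy1 cKO above and 17 with control above; among all tested genes the share was 52.2%, 25.2% with Yy1 cKO above and 27% with control above.

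Among precursor genes, Pdgfra, the receptor that drives division and survival of precursors, showed the clearest fall. Pdgfra (ENSMUSG00000029231.15, chromosome 5, 75152292 to 75198215, GRCm38) stood at 32.3 and 38.3 CPM for the controls against 24.2, 25.1 and 25.6 CPM for Yy1 cKO. Every Yy1 cKO library lay below both controls, and the log2 fold change was -0.50 ± 0.095 (SE, adjusted p = 0.0045). Control 2 was the higher control, and leaving out control 2 ended the call (at an adjusted p of 0.075). Cspg4, which encodes NG2, stood at 22.1 and 21.6 CPM for the controls against 18.5, 16.5 and 17.2 CPM for Yy1 cKO. Its groups did not overlap either, with a change of -0.33 ± 0.097 (SE, adjusted p = 0.035), but leaving out control 1, control 2 or Yy1 cKO 2 ended the call (at an adjusted p of 0.19, 0.14 and 0.093, in that order), as did DESeq2 on all libraries (adjusted p = 0.072).

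Olig1 and Olig2 encode paired basic helix-loop-helix factors that specify the lineage and stay on throughout it. Olig1 stood at 74.2 and 70.5 CPM for the controls against 56.3, 57.6 and 64.8 CPM for Yy1 cKO, and it fell by 0.28 ± 0.074 on the log2 scale (SE, adjusted p = 0.022), although leaving out control 1, control 2, Yy1 cKO 1 or Yy1 cKO 2 ended the call (at an adjusted p of 0.19, 0.097, 0.093 and 0.081, in that order). Olig2 stood at 20.9 and 19.96 CPM for the controls against 18.3, 17.1 and 16.3 CPM for Yy1 cKO. The controls were again the higher libraries, but the change of -0.24 ± 0.098 (SE) did not pass (adjusted p = 0.11). Sox10, the factor that with OLIG2 maintains the lineage at all its stages, was placed with the committed genes. It stood at 30.6 and 35.6 CPM for the controls against 26.7, 26.4 and 27.9 CPM for Yy1 cKO and had a change of -0.29 ± 0.092 (SE, adjusted p = 0.047), but leaving out control 2, Yy1 cKO 1 or Yy1 cKO 2 ended the call (at an adjusted p of 0.38, 0.12 and 0.12, in that order). With all libraries kept, the call was also lost with DESeq2 (adjusted p = 0.089), limma-voom, upper-quartile scaling and without robust dispersion.

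Lhfpl3, a tetraspan membrane protein enriched in precursors, stood at 25.6 and 28.2 CPM for the controls against 21.4, 19.2 and 21.9 CPM for Yy1 cKO and changed by -0.37 ± 0.10 (SE, adjusted p = 0.025); leaving out control 1, control 2, Yy1 cKO 1 or Yy1 cKO 2 ended the call (at an adjusted p of 0.070, 0.19, 0.056 and 0.078, in that order). The matrix and surface genes of this stage were less uniform. Vcan, a large proteoglycan, stood at 87.2 and 80.5 CPM for the controls against 65.6, 56.8 and 78.3 CPM for Yy1 cKO, below both controls in all Yy1 cKO libraries but with Yy1 cKO 3 close to control 2. Its change of -0.33 ± 0.13 (SE) did not pass with all libraries (adjusted p = 0.12) and passed without Yy1 cKO 3 (log2 fold change -0.45, adjusted p = 1.9e-04). Sox6, a repressor of early maturation, stood at 25.7 and 22.9 CPM for the controls against 20.99, 17.4 and 22.98 CPM for Yy1 cKO, with Yy1 cKO 3 just above control 2. Its change was -0.25 ± 0.13 (SE, adjusted p = 0.20) with all libraries and -0.34 (adjusted p = 0.026) without Yy1 cKO 3. Matn4, a matrilin and the rarest member, had 123 and 93 counts for the controls against 101, 51 and 63 counts for Yy1 cKO, with a change of -0.65 ± 0.25 (SE, adjusted p = 0.098) that passed without Yy1 cKO 1 (-0.93, adjusted p = 0.026).

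The remaining precursor genes were the proteoglycan Cspg5 and the matrix glycoprotein Tnr, which neurons or other glia also make. Cspg5 stood at 78.4 and 70.1 CPM for the controls against 77.8, 75.2 and 63.6 CPM for Yy1 cKO and Tnr at 249 and 249 CPM for the controls against 238, 253 and 233 CPM for Yy1 cKO. In both genes the groups overlapped, with log2 fold changes of -0.04 ± 0.093 and -0.05 ± 0.058 (SE, adjusted p = 0.80 and 0.62). Markers of astrocytes and Bergmann glia, which share several of these genes, moved both ways, with 5 of 12 higher and 2 lower and a summed level of 4775 to 4795 CPM for the controls against 5592 to 5993 CPM for Yy1 cKO. Cell division genes, which dividing precursors share with the granule cell precursors, fell in 14 of 16 cases. Their summed levels went from 142 and 169 CPM (controls) to 41.9 to 44.8 CPM (Yy1 cKO). Of all tested genes 12.6% fell and 10.7% rose, the shares to set beside both lists. The part of either group of cells in the precursor values was not tested.

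The committed stage held the largest falls. Gpr17 (ENSMUSG00000052229.5), an orphan receptor that marks precursors on the way to differentiation and holds them back from it, stood at 102 and 114 CPM for the controls against 50.7, 53.4 and 62.7 CPM for Yy1 cKO. Every Yy1 cKO library lay far below both controls, and the log2 fold change was -0.96 ± 0.093 (SE, adjusted p = 1.6e-04), between -1.05 and -0.88 over all alternatives. Lims2, which overlaps Gpr17 on the opposite strand, had 169 and 187 counts for the controls against 162, 154 and 178 counts for Yy1 cKO and a change of -0.16 ± 0.13 (SE, adjusted p = 0.43). Enpp6 (ENSMUSG00000038173.15, chromosome 8, 46986887 to 47096762), a choline phosphodiesterase of newly forming oligodendrocytes, stood at 45.6 and 44.5 CPM for the controls against 27.98, 25.1 and 27.3 CPM for Yy1 cKO. Its libraries were tight within each group and far apart between them, with a change of -0.75 ± 0.080 (SE, adjusted p = 1.7e-04).

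Smaller falls were seen in Bcas1 and Nkx2-2. Bcas1, a protein of early myelinating cells, stood at 99.3 and 103 CPM for the controls against 83.1, 79 and 86.5 CPM for Yy1 cKO and changed by -0.29 ± 0.061 (SE, adjusted p = 0.0084); leaving out control 1 or control 2 ended the call (at an adjusted p of 0.061 and 0.099, in that order). Nkx2-2, a homeodomain factor of the step into differentiation, had only 187 and 158 counts for the controls against 139, 134 and 120 counts for Yy1 cKO, and its change of -0.45 ± 0.13 (SE, adjusted p = 0.039) was not stable: leaving out control 1, control 2, Yy1 cKO 1, Yy1 cKO 2 or Yy1 cKO 3 ended the call (at an adjusted p of 0.27, 0.096, 0.097, 0.067 and 0.053, in that order). With all libraries kept, DESeq2 (adjusted p = 0.11) and Xist as a covariate (adjusted p = 0.057) ended it too. An antisense transcript, Nkx2-2os, overlaps it. Neu4, a sialidase, stood at 10.3 and 8.81 CPM for the controls against 7.55, 6.24 and 7.84 CPM for Yy1 cKO, with a change of -0.41 ± 0.15 (SE) that missed the threshold (adjusted p = 0.077) and passed without Yy1 cKO 3 (adjusted p = 0.032).

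Myrf, the membrane-bound factor that starts myelin gene expression, did not share in the fall. It stood at 50.5 and 55.4 CPM for the controls against 60.1, 54.2 and 56.01 CPM for Yy1 cKO, the groups overlapped, and the log2 fold change was 0.10 ± 0.073 (SE, adjusted p = 0.37). It was the one committed gene with a positive value.

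**Figure D2:**
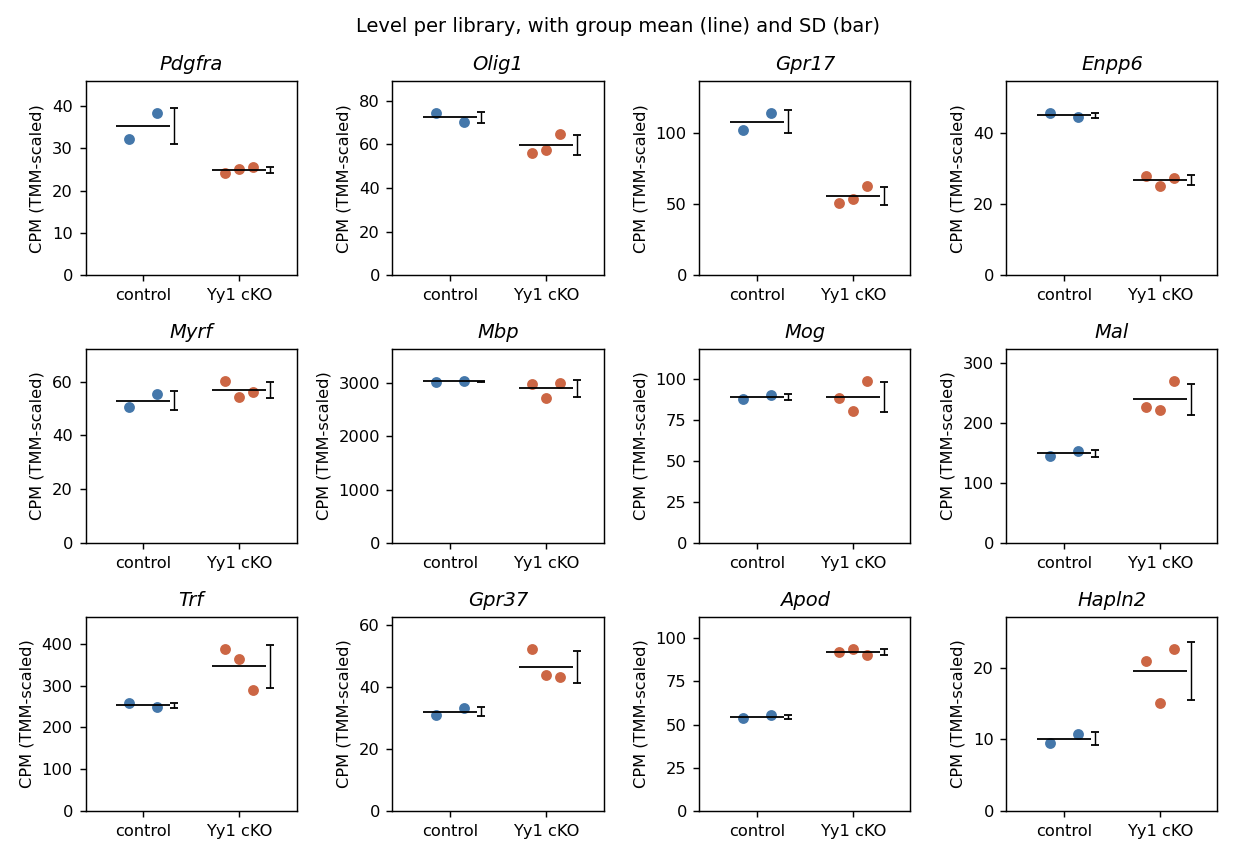
TMM-scaled CPM of 12 of the genes in each library, with the group mean as a line and the SD as a bar (control n = 2, Yy1 cKO n = 3); each axis starts at 0. Gpr17 and Enpp6 of the Yy1 cKO libraries lie far under both controls, Mog and Myrf overlap, and Mal, Apod and Hapln2 lie above both controls.

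Within the myelin stage, the structural genes Mbp and Mog did not pass the test, and Cnp fell slightly. Mbp, myelin basic protein, which holds the cytoplasmic faces of the membrane together, was the most abundant of the 39 genes per exon length, at 894 TPM (a level per exon length within a library) for the controls and 812 TPM for Yy1 cKO on average. It stood at 3019 and 3029 CPM for the controls against 2975, 2710.5 and 2995 CPM for Yy1 cKO, with a change of -0.06 ± 0.073 (SE, adjusted p = 0.59). Yy1 cKO 2 was the lowest library, and the other 2 of its group lay just under the controls. Mog, on the outermost myelin surface, stood at 87.8 and 90.3 CPM for the controls against 88.3, 80.4 and 98.8 CPM for Yy1 cKO, and its change was 0.0020 ± 0.083 (SE, adjusted p = 0.99). Cnp, an enzyme of the uncompacted myelin channels, was the one myelin gene that fell. It stood at 539 and 533 CPM for the controls against 452, 465 and 489 CPM for Yy1 cKO, a change of -0.19 ± 0.061 (SE, adjusted p = 0.047), but leaving out control 1, control 2, Yy1 cKO 1 or Yy1 cKO 2 ended the call (at an adjusted p of 0.23, 0.21, 0.20 and 0.13, in that order). The call was lost with upper-quartile or RLE scaling and without robust dispersion as well, and Dnajc7 overlaps Cnp on the opposite strand.

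Mag, an adhesion molecule of the membrane next to the axon, and Ugt8a, the enzyme that makes galactosylceramide, leaned the same way without passing. Mag stood at 222 and 227 CPM for the controls against 205, 186 and 205 CPM for Yy1 cKO (-0.18 ± 0.061, SE, adjusted p = 0.067), all Yy1 cKO libraries below both controls. Ugt8a stood at 203 and 214 CPM for the controls against 187, 173 and 135 CPM for Yy1 cKO (-0.34 ± 0.14, SE, adjusted p = 0.15). Yy1 cKO 3 was its lowest library, and without it the change of -0.21 passed (adjusted p = 0.0041), as did that of Mag (-0.20, adjusted p = 0.0076). Cldn11, Tspan2, Fa2h and Cmtm5 had overlapping groups and changes of 0.08, -0.07, 0.05 and -0.05 (adjusted p = 0.55, 0.64, 0.78 and 0.76). They encode the tight junction protein of the myelin sheath, a tetraspanin, the fatty acid 2-hydroxylase of myelin lipids and a membrane protein of the chemokine-like factor family. Tspan2 passed without Yy1 cKO 3, with a change of -0.16 (adjusted p = 0.019).

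The myelin genes that rose ranged from abundant to rare. Apod (ENSMUSG00000022548.14, chromosome 16, 31296192 to 31314808), a secreted lipid-binding protein of the lipocalin family, stood at 53.8 and 55.5 CPM for the controls against 92.2, 93.8 and 90.5 CPM for Yy1 cKO. Its libraries agreed closely within both groups, and the change of 0.75 ± 0.059 (SE) had the smallest adjusted p of the 39 genes (2.8e-05). Mal (ENSMUSG00000027375.14, chromosome 2, 127633226 to 127656695), a proteolipid of membrane rafts, stood at 146 and 154 CPM for the controls against 227, 223 and 270.4 CPM for Yy1 cKO, a change of 0.68 ± 0.088 (SE, adjusted p = 7.9e-04). Hapln2 (ENSMUSG00000004894.10, chromosome 3, 88021750 to 88027583), the link protein of the matrix at nodes of Ranvier, rose the most of the 39 genes. It stood at 9.46 and 10.8 CPM for the controls against 20.99, 15 and 22.6 CPM for Yy1 cKO, with Yy1 cKO 2 lower than the other 2 of its group but above both controls. Its change was 0.95 ± 0.18 (SE, adjusted p = 0.0061), and leaving out control 1 ended the call (at an adjusted p of 0.076).

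Gpr37, a receptor that limits the pace of oligodendrocyte maturation, stood at 30.9 and 33.1 CPM for the controls against 52.2, 43.8 and 43.1 CPM for Yy1 cKO and rose by 0.53 ± 0.097 (SE, adjusted p = 0.0036); leaving out control 1 ended the call (at an adjusted p of 0.055). Trf, transferrin, the iron carrier that oligodendrocytes make, stood at 257 and 248 CPM for the controls against 388, 363 and 289 CPM for Yy1 cKO. All Yy1 cKO libraries were above the controls, Yy1 cKO 3 least so, with a change of 0.46 ± 0.12 (SE, adjusted p = 0.035), and leaving out control 1, control 2, Yy1 cKO 1 or Yy1 cKO 2 ended the call (at an adjusted p of 0.14, 0.17, 0.057 and 0.098, in that order). Aspa, the enzyme that splits N-acetylaspartate, had 201 and 231 counts for the controls against 333, 272 and 326 counts for Yy1 cKO, a change of 0.47 ± 0.12 (SE, adjusted p = 0.023); leaving out control 1 or Yy1 cKO 1 ended the call (at an adjusted p of 0.22 and 0.068, in that order). Mobp and Ermn, a small basic protein of compact myelin and a cytoskeletal protein of late oligodendrocytes, rose by about the same amount. Mobp stood at 588 and 576 CPM for the controls against 725, 659 and 803 CPM for Yy1 cKO (0.32 ± 0.084, SE, adjusted p = 0.021) and Ermn at 41.5 and 43.7 CPM for the controls against 56.4, 55.7 and 48.1 CPM for Yy1 cKO (0.33 ± 0.083, SE, adjusted p = 0.019). For Mobp, leaving out control 1, control 2 or Yy1 cKO 1 ended the call (at an adjusted p of 0.12, 0.16 and 0.067, in that order); for Ermn, leaving out control 1, control 2, Yy1 cKO 1 or Yy1 cKO 2 ended the call (at an adjusted p of 0.16, 0.098, 0.082 and 0.074, in that order). Scaled by library size alone, Mobp, Ermn and Trf were not called (adjusted p = 0.072, 0.052 and 0.056).

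Opalin, Ppp1r14a and Nkx6-2 lay above the controls in all Yy1 cKO libraries without passing. Opalin, a late membrane glycoprotein, had 185 and 183 counts for the controls against 234, 190 and 258 counts for Yy1 cKO and a change of 0.25 ± 0.14 (SE, adjusted p = 0.23). Ppp1r14a, a phosphatase inhibitor, changed by 0.33 ± 0.12 (SE, adjusted p = 0.088). Nkx6-2, a homeodomain factor of mature oligodendrocytes, changed by 0.45 ± 0.16 (SE, adjusted p = 0.070) and passed without Yy1 cKO 3 (0.48, adjusted p = 0.039); its 719 counts over all libraries stand beside 26853 of Inpp5a, which overlaps it on the opposite strand. The gap junction genes Gjb1 and Gjc3, connexins 32 and 29 of myelin, varied widely within the groups. Gjb1 had 187 and 230 counts for the controls against 347, 218 and 265 counts for Yy1 cKO and Gjc3 had 961 and 724 counts for the controls against 1311, 743 and 1242 counts for Yy1 cKO, with changes of 0.35 ± 0.18 and 0.33 ± 0.28 (SE, adjusted p = 0.20 and 0.49). In both genes Yy1 cKO 2 was the lowest library of its group, and without it Gjc3 passed (0.53, adjusted p = 0.021).

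Some myelin genes are also made outside the lineage, so markers of those cells are given beside them. The summed level of 9 meningeal fibroblast markers, a cell type that makes Apod and Cldn11, was 231 and 315 CPM for the controls against 128, 179.7 and 181 CPM for Yy1 cKO, with 4 of 9 lower and none higher. For the choroid plexus, which makes Trf, 8 markers summed to 22.3 and 22.6 CPM for the controls against 14.4 to 21.8 CPM for Yy1 cKO, and of the 6 tested 1 fell and 1 rose (median log2 fold change 0.59, 4 of 6 positive). Otx2, which made up most of the sum in the controls, fell from 15.6 CPM (controls) to 8.73 CPM (Yy1 cKO) on average (-0.84 ± 0.11, SE, adjusted p = 4.7e-04). In every library 3 of the 8 markers stayed under 1 CPM, so the sum is a poor measure of these cells. Ttr, the most abundant product of the choroid plexus, rose while staying under 1 CPM in every library (0.273 CPM (controls) and 0.808 CPM (Yy1 cKO); 1.54 ± 0.48, SE, adjusted p = 0.046). The part of these cells in the value of Trf was not tested. Of 9 Schwann cell markers, the cells that myelinate peripheral nerve, Pmp2 had no count in any library, and the sum lay between 38.05 and 48.9 CPM in all libraries, most of it from Drp2. Of the 5 tested, 2 fell and none rose. These were Prx (-1.50 ± 0.34, SE, adjusted p = 0.011) and Cldn19 (-2.58 ± 0.59, SE, adjusted p = 0.012), at only 2.22 and 0.871 CPM on average in the controls. Of 8 tested microglial markers 1 fell and none rose. Among all tested genes 12.6% fell and 10.7% rose.

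Because scaling between libraries cancels within a library, the stages were also set against each other as ratios of summed TPM. The precursor sum was 8.01% and 7.68% of the myelin sum in control 1 and 2 against 6.18%, 6.54% and 6.27% for Yy1 cKO. The committed sum was 6.52% and 6.80% of the myelin sum in control 1 and 2 against 4.49%, 4.65% and 4.66% for Yy1 cKO. Neither ratio overlapped between the groups. The largest parts of the precursor sum were Olig1 (83.8 TPM on average in the controls) and Tnr (48.5 TPM). Neither gene is limited to precursors. Without Olig1 and Mbp, the most abundant genes of their stages, the precursor sum was 7.28% and 7.04% of the myelin sum in control 1 and 2. For Yy1 cKO it was 5.69%, 5.86% and 5.42%. Against the precursor sum, the committed sum was 81.4% and 88.6% in control 1 and 2 against 72.7%, 71.03% and 74.3% for Yy1 cKO. The myelin sum itself made up 0.293% and 0.286% of all TPM in control 1 and 2 against 0.298%, 0.267% and 0.308% for Yy1 cKO, and these ranges overlapped. No p is given for these sums, since the members were chosen with results of these data known.

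**Figure D3:**
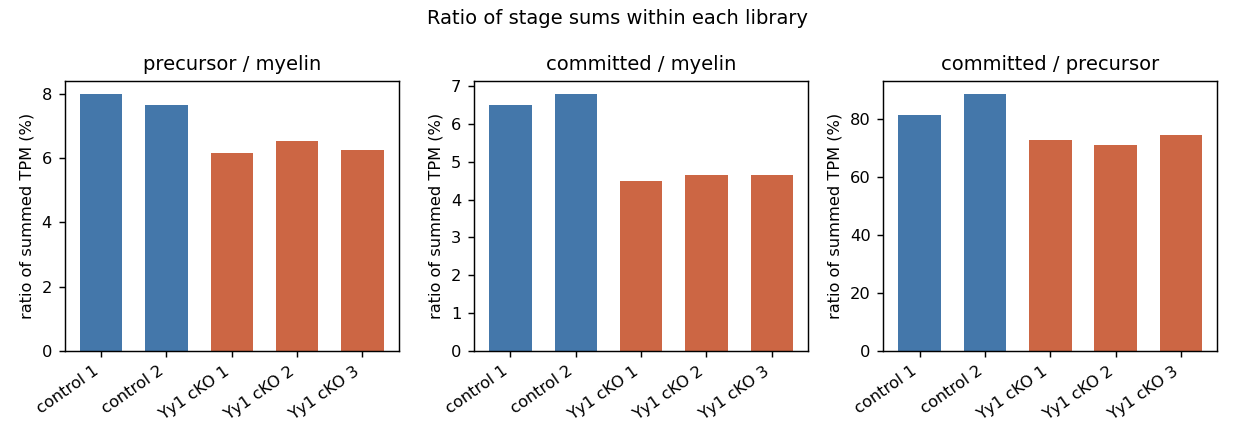
Ratio of summed TPM of the precursor to the myelin genes, the committed to the myelin genes and the committed to the precursor genes, in percent, 1 bar per library, control in blue and Yy1 cKO in orange. In all 3 panels both controls stand above every Yy1 cKO library, as in the committed to myelin ratio (6.52% and 6.80% against 4.49% to 4.66%).

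The stages were also compared library by library. As the median difference from the control mean in log2 CPM (pseudocount 0.1), precursor genes stood at -0.23, -0.44 and -0.26 in Yy1 cKO 1, 2 and 3, and committed genes at -0.33, -0.35 and -0.28. Myelin genes stood at 0.27, 0.07 and 0.28. Yy1 cKO 2 was thus the lowest of its group in every stage, and it had 13 of 22 myelin genes above the control mean where the other 2 libraries had 16 each.

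Promoters of members that fell or rose are shown for the sequence around their starts. Of the 39 genes 30 matched an entry of the RefSeq promoter table (GRCm38.p6, 250 bases before to 50 bases after the start, 1 entry per gene). Motifs were searched on both strands by their letters alone: CCATNTT (YY1 core), ACAAT (SOX core), CTGGNAC (MYRF), and the E-box CANNTG, of which CAGCTG is one form; 2 longer forms were AAGATGGC for YY1 and AACAAAG for SOX. CCATNTT was found in 8 of 30 members (26.7%) and in 16.3% of 27025 promoters of the same length. The 8 were Cspg4, Nkx2-2, Enpp6, Mobp, Mag, Opalin, Aspa and Ppp1r14a, of which Mag, Opalin and Ppp1r14a were not called. ACAAT was found in 10 of 30 (33.3%, against 31.6% of all promoters) and CANNTG in 21 of 30 (70%, against 72.2%). CTGGNAC was found in 9 of 30 (30%, against 19.2%), of which 8 were among the 19 myelin genes with an entry: Mog, Mag, Cnp, Opalin, Gpr37, Apod, Hapln2 and Ppp1r14a. CAGCTG was found in 6 of 30 (20%, against 16.1%), AAGATGGC in 1 of 30 (3.33%, against 2.88%) and AACAAAG in 3 of 30 (10%, against 5.79%). A match describes letters in this window and is not a site of binding.

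The promoter of the committed gene with the clearest change and an entry in the table (Enpp6) is printed beside those of the myelin genes that rose most (Hapln2, Apod and Mal), from 5′ to 3′ on the strand of the gene, with matches to the YY1 core, the SOX core and the MYRF motif on either strand in capitals. Enpp6 lies at chr8:46986637-46986936 (plus strand), Hapln2 at chr3:88027462-88027761, Apod at chr16:31314759-31315058 and Mal at chr2:127656646-127656945 (all minus strand).
Enpp6: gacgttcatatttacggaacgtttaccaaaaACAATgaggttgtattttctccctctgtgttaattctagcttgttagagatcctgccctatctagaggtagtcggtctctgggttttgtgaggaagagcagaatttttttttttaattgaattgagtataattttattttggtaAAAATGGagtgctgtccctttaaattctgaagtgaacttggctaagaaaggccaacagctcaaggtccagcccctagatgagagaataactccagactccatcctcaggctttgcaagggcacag
Hapln2: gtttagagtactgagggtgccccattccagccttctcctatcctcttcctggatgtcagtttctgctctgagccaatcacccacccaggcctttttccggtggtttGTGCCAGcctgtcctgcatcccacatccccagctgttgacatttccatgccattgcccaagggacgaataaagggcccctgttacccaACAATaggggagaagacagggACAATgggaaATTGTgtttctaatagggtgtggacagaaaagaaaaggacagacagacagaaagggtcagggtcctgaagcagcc
Apod: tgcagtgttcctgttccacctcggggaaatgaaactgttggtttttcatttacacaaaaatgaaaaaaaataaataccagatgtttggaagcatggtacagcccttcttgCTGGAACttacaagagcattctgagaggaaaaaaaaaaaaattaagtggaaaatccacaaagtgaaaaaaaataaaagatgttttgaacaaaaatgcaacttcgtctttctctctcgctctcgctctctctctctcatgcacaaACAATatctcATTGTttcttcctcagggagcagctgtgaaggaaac
Mal: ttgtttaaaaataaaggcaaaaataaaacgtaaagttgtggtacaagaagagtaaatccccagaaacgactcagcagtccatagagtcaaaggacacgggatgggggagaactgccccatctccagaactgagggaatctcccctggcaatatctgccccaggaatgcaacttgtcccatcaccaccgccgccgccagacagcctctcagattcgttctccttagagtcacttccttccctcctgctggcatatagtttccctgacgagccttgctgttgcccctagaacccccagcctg
Enpp6 holds 1 match to CCATNTT (as its reverse complement) and 1 to ACAAT. Hapln2 holds 3 matches to ACAAT and 1 to CTGGNAC, and Apod 2 and 1. The window of Mal holds none of the 3.

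Further genes of the lineage, listed from general knowledge with earlier results of these data known, were counted in the same fit. Of 18 further precursor genes 6 fell and 3 rose (median log2 fold change -0.27), where 12.6% of all tested genes fell and 10.7% rose. Those with the smallest p were Emid1, a secreted protein with an EMI domain (from 39.2 ± 1.7 to 16.1 ± 1.3 CPM, SD; log2 fold change -1.28 ± 0.098, SE), Sox5, a partner of Sox6 (-0.81 ± 0.078), the receptor phosphatase Ptpro (-1.14 ± 0.15), Megf11, which rose (0.67 ± 0.090), and C1ql1 (-1.24 ± 0.21). Ptprz1, a receptor phosphatase that Bergmann glia also express, rose by 0.33 ± 0.067 (SE, adjusted p = 0.0060), and leaving out control 1 or control 2 ended the call (at an adjusted p of 0.064 and 0.075, in that order). Sox5 and Ptpro are not limited to the lineage.

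Of 17 further committed genes 8 fell and 3 rose (median -0.44), against 12.6% and 10.7% of all tested genes. Casr, the calcium-sensing receptor, fell from 5.47 ± 0.067 to 1.81 ± 0.28 CPM (SD, n = 2 and 3), Zfp488, a factor of oligodendrocyte differentiation, from 10.8 ± 0.92 to 5.17 ± 0.32 CPM, and Rras2, a small GTPase, from 25 ± 1.3 to 14.04 ± 1.2 CPM. The noncoding RNA 9630013A20Rik changed by -0.92 ± 0.16 (SE), and leaving out control 2 ended the call (at an adjusted p of 0.053). Cyfip2, an actin regulator of neurons, rose (0.47 ± 0.062, SE). The familiar stage markers Itpr2, Tcf7l2 and Bmp4 were below both controls in all Yy1 cKO libraries and did not pass, at -0.59 ± 0.16, -0.45 ± 0.16 and -0.66 ± 0.24 (SE, adjusted p = 0.051, 0.070 and 0.071).

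Of 34 further myelin genes 14 rose and 1 fell (median 0.21), against 10.7% and 12.6% of all tested genes. Ndrg1 went from 24.6 ± 2.2 to 57.3 ± 1.8 CPM (SD), Pex5l from 16.9 ± 0.058 to 36.3 ± 3.5 CPM and Tmem63a, an ion channel, from 15.5 ± 0.017 to 24.8 ± 2.3 CPM. Josd2 (0.50 ± 0.091, SE) and Evi2a (0.76 ± 0.14) rose too, and for Evi2a leaving out control 2 ended the call (at an adjusted p of 0.056). Ndrg1 and Pex5l are also made by other cells. Of 19 enzymes of myelin lipids 3 rose and 3 fell (median -0.06), that is 31.6% called against 23.4% of all tested genes. Among them Fads2, a fatty acid desaturase, changed by -0.66 ± 0.065 (SE), Gltp, a glycolipid transfer protein, by -0.67 ± 0.072, Scd1, a stearoyl-CoA desaturase, by 0.46 ± 0.053, and Gal3st1, which adds the sulfate of sulfatide, by -0.41 ± 0.11. The call of Gal3st1 was not stable: leaving out control 1, control 2 or Yy1 cKO 2 ended the call (at an adjusted p of 0.15, 0.10 and 0.056, in that order). The same held for Sgms1, a sphingomyelin synthase (0.28 ± 0.069, SE): leaving out control 1, control 2, Yy1 cKO 1 or Yy1 cKO 2 ended the call (at an adjusted p of 0.15, 0.096, 0.078 and 0.058, in that order), as did scaling by library size alone (adjusted p = 0.057).

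**Figure D4:**
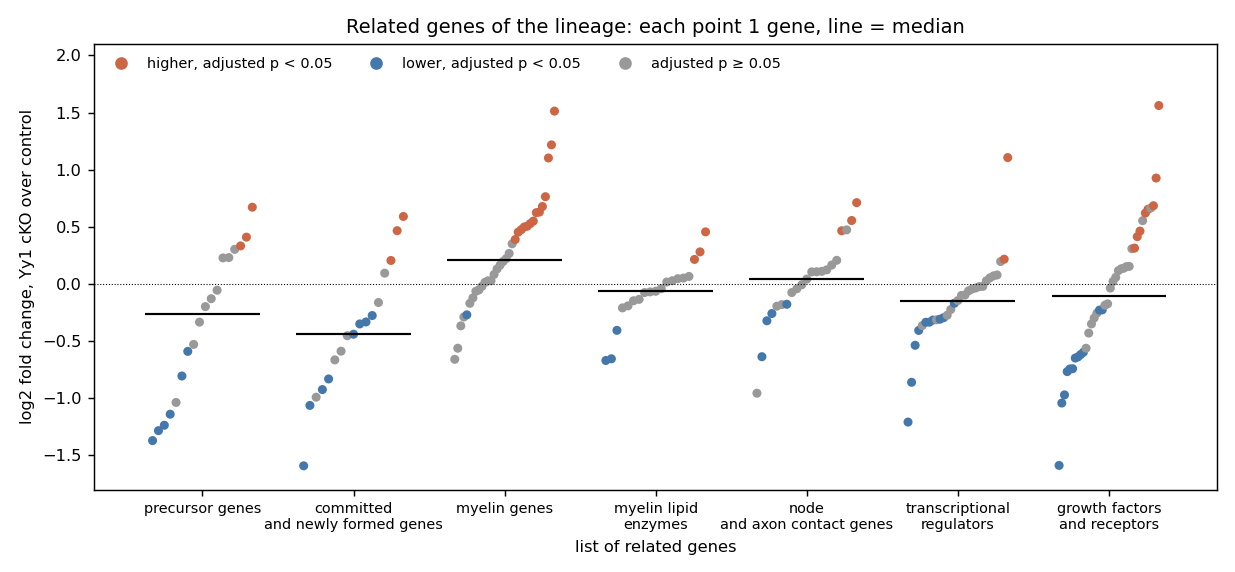
Log2 fold change (Yy1 cKO over control) of the further genes in 7 lists, 1 point per tested gene coloured by its call, with the list's median as a line. Points of the precursor and committed lists lie mostly below 0 (medians -0.27 and -0.44), and those of the myelin list mostly above 0 (median 0.21).

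Genes of axon contact and of the node of Ranvier are largely neuronal. Of 21 tested 3 rose and 4 fell. Among all tested genes 10.7% rose and 12.6% fell, the shares to set beside this list and the regulators below. The potassium channel genes of the juxtaparanode rose, Kcna2 by 0.71 ± 0.073 (SE), Kcna1 by 0.47 ± 0.058 and their partner subunit Kcnab2 by 0.56 ± 0.070. The adhesion molecules Cntn2 (-0.32 ± 0.066, SE) and Nfasc (-0.26 ± 0.060) fell, and for Cntn2 leaving out control 1 or control 2 ended the call (at an adjusted p of 0.079 and 0.060, in that order), while for Nfasc leaving out control 1 or control 2 ended the call (at an adjusted p of 0.13 and 0.072, in that order). Of 29 tested transcriptional regulators 10 fell and 2 rose, led by Nfib (-0.86 ± 0.066, SE), Hdac2 (-0.54 ± 0.056), Nfia (-0.41 ± 0.056) and Zfp536 (-0.33 ± 0.056); Hes1, a Notch effector, rose (1.11 ± 0.21), and leaving out control 2 ended the call (at an adjusted p of 0.056). Most of these are also strong in neurons or their precursors, and all 12 markers of immature neurons fell, from summed levels of 1115 and 1188 CPM to 238 to 271 CPM; the part of those cells in the regulator values was not tested.

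Of 38 tested growth factors and receptors that act on the lineage 12 fell and 8 rose, against 12.6% and 10.7% of all tested genes. Ptn, pleiotrophin, fell from 202 ± 3.2 to 103 ± 6.8 CPM (SD), Lingo1, a brake on myelination that neurons also carry, from 117 ± 1.5 to 68.6 ± 3.9 CPM, Egfr from 59.4 ± 0.023 to 35.5 ± 1.9 CPM and Erbb4, a neuregulin receptor, from 146 ± 0.026 to 95.2 ± 8.9 CPM. Bdnf, a neurotrophin, rose from 6.56 ± 1.2 to 19.4 ± 1.4 CPM. Pdgfa, the ligand of PDGFRA, stood at 10.9 and 10.5 CPM for the controls against 14.3, 12.6 and 12.8 CPM for Yy1 cKO and did not pass (0.31 ± 0.11, SE, adjusted p = 0.080). Shh stood at 2.63 and 2.34 CPM for the controls against 2.42, 3.56 and 2.26 CPM for Yy1 cKO (0.14 ± 0.26, SE, adjusted p = 0.76).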

How the data were processed

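The authors deposited raw counts per gene for 5 libraries of whole mouse cerebellum, prepared with depletion of ribosomal RNA and a strand-specific protocol per the labels' protocols. The submitters' processing notes list FastQC 0.11.8, Trimmomatic 0.39, STAR 2.7.1a, featureCounts, DESeq2 1.26.0 and the build GRCm38; the settings, and whether counting used strand, were not stated there. A deposited table of scaled counts was not used.

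From the raw counts, genes were filtered with filterByExpr and fitted with edgeR 4.0.16 (TMM scaling, robust quasi-likelihood test, Benjamini-Hochberg adjustment over 20388 genes, threshold 0.05) in R 4.3.3, without covariates. The test was also run on simulated counts of independent libraries with few genes changed. That setting differs from these data, so the run cannot vouch for the calls here. CPM are TMM-scaled, and TPM use union exon lengths of GENCODE M21. Symbols matched by identifier for 54673 genes with the version and 567 without it; 181 did not match. Total counts of 17424860 to 20305705 and a biological coefficient of variation of 10.5% set the precision.

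Alternatives were upper-quartile, RLE and library-size scaling, 2 other filters, DESeq2 1.42.0, limma-voom 3.58.1, no robust dispersion, Xist as a covariate, a replicate block, and each library left out. All 39 members are named; from each further list, up to 5 genes with the smallest p among those called, plus Ptprz1, C1ql1, Bmp4, Tcf7l2, Itpr2, Pdgfa, Shh and Yy1; some genes of the lists are not reported here. Lims2, Calb1, Gabra6 and markers of other cell types were named after their values were seen. The members and lists were chosen with earlier results of these data known.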

Additional observations from a re-analysis of the deposited data

How the results depend on the processing

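None of the 18 called members changed sign under any of the 15 alternatives, while Cspg5, Cmtm5, Cldn11, Fa2h, Mog and Tspan2, which were not called, changed sign in at least 1; over the members and alternatives, 503 values kept their side of the threshold, 54 lost the call and 28 gained one. With libraries left out in turn, members higher ranged from 2 to 9 (8 with all libraries), members lower from 2 to 15 (10), precursor genes lower from 0 to 6 (4), committed genes lower from 2 to 5 (5), myelin genes higher from 2 to 9 (8) and lower from 0 to 4 (1), all genes higher from 887 to 2990 (2185) and all genes lower from 1267 to 3127 (2577). Fits without a control rest on 1 control library, assumed to vary like the others. The fit without Yy1 cKO 3 rests on Yy1 cKO 1 and Yy1 cKO 2, which may not be separate animals. Scaling by library size alone gave 5 members higher, all 5 of them myelin genes, 2 myelin genes lower, and 1432 genes higher against 3369 lower in all. Committed genes lower numbered 3 with DESeq2. Myelin genes lower numbered 0 with upper-quartile scaling, 0 with RLE size factors, 0 without robust dispersion, 2 without a filter on low counts and 2 with Xist as a covariate. The deviations of same-numbered libraries from their group means had correlations of 0.037 and 0.013. With 2 controls the deviations of one mirror those of the other, so these values do not settle whether the libraries were paired. With a replicate block, members lower numbered 17, precursor genes lower 7, myelin genes lower 4, and all genes higher 3486. Only Yy1 cKO 3 had replicate number 3, so with the block that library did not add to the comparison of the groups. The log2 fold changes with the block were thus close to those without Yy1 cKO 3 (-1.052 and -1.054 for Gpr17, -0.456 and -0.4532 for Vcan). The block is therefore not a separate check from leaving out Yy1 cKO 3. The precursor to myelin ratio in Yy1 cKO was 80.7% of that in controls from summed TPM (79.1% to 82.5% with libraries left out), 86.3% from summed CPM and 68.6% from means of log2 values. Beyond the tie of the block to Yy1 cKO 3, the cause of these shifts was not tested. With 2 control libraries, small changes on the log2 scale are at the limit of what these data resolve.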

Other observations

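Ratios between single members were also taken within each library. Mbp made up 31.1% and 30.7% of the summed myelin TPM for the controls against 28.2%, 27.5% and 28% for Yy1 cKO, without overlap between the groups. The ratio of Gpr17 to Mog, in TPM, was 0.382 and 0.413 for the controls against 0.188, 0.218 and 0.208 for Yy1 cKO. Olig1 to Olig2, with 4.15 and 4.13 for the controls against 3.60, 3.94 and 4.64 for Yy1 cKO, and Gjb1 to Gjc3, with 0.497 and 0.811 against 0.675, 0.749 and 0.544, overlapped between the groups.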
